A study of Homo sapiens with 4 samples.

Results

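The genes described here are 51 genes of mitosis and the kinetochore, of 19801 genes measured by RNA-seq in LNCaP cells. They were taken from a fixed list of symbols and found in the data by their Entrez gene identifiers, and the rule for membership uses no measured value. The list, and the further lists used below, were however chosen with earlier results of these data known. All 51 were measured. All 51 reached 1 RPKM (reads per kilobase of exon, scaled to the mapped reads of the library) in at least 1 library, as did 14626 genes in all, and 49 of the 51 reached it in all 4 libraries. LNCaP is an established human prostate cancer cell line. The cells were transfected for 24 h with an empty vector or with the plasmid labelled AR1-651, and were then kept for a further 12 h with or without ailanthone (AIL), a plant compound. The 4 groups were therefore AR1-651 and empty vector, each without AIL and with it (written AR1-651 + AIL and empty vector + AIL), all from the same line in serum-containing medium. Each group was 1 library, so no value has a replicate error, no difference between libraries was tested, and no p-value is given anywhere below. Transfection was transient, and the share of cells that took up plasmid and the dose of AIL used for sequencing are not given in the sources used here.

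Mitosis is set in motion by the kinase CDK1 bound to cyclin B. Chromosomes are compacted by condensin, each centromere builds a kinetochore that grips spindle microtubules, and the spindle assembly checkpoint holds back the anaphase-promoting complex (APC/C) until every kinetochore is attached. Most of these genes are transcribed late in the cell cycle, through promoter elements known as CHR (cell cycle genes homology region) and CCAAT boxes, which are bound by the MuvB complex with its partners and by NF-Y. In a dividing cancer line such as LNCaP the level of these mRNAs is commonly read as a mark of proliferation. In bulk RNA a smaller share of dividing cells and less of these mRNAs per dividing cell cannot be told apart.

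The labelled cell type was checked against marker genes, because the design text also carries the word retinal. All 7 luminal prostate markers looked at (KLK3, KLK2, TMPRSS2, FOLH1, HOXB13, KRT8 and KRT18) were above 1 RPKM in all 4 libraries, the basal marker KRT14 lay between 0 and 0.21 RPKM, the leukocyte marker PTPRC between 0.36 and 0.94 RPKM and the fibroblast marker DCN between 0 and 0.15 RPKM. The other fibroblast markers, COL1A1 and COL1A2, lay between 1.75 and 4.59 RPKM and between 0 and 0.46 RPKM. KLK3, which encodes prostate-specific antigen, was at 287 RPKM with empty vector and 1442 with AR1-651, and at 303 and 582 under AIL, so it was highest in the library labelled AR1-651. Directions drawn from the AR1-651 libraries below rest on their labels. The libraries also differed over all genes. The median RPKM of all genes was 4.68 with empty vector and 3.12 with AR1-651, and under AIL it was 4.23 and 3.82.

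Promoter sequences were looked at first, since shared promoter elements are what these genes are known for. Windows of 300 bases, from 250 before to 50 after the start of each gene, were read from RefSeq on build GRCh38.p14 for the 43 members with an entry, and each motif was searched on both strands. The CHR element TTTGAA was found in 30 of 43 windows (69.8%), against 9.70% of 11173 windows of all genes kept and 15.4% of all 27305 windows. The median position of its matches was 28 bases before the start. The CHR-like variant TTTAAA was in 13 windows (30.2%), against 7.57% and 12.3%. The NF-Y motif CCAAT was in 32 windows (74.4%), against 37.4% and 35.7%. CCAAT together with TTTGAA or TTTAAA was in 27 windows (62.8%), against 6.47% and 9.49%. The E2F motifs TTCCCGC or TTGGCGC were in 9 windows (20.9%), against 14.3% and 9.33%. The median GC content of the windows was 61.3% for the mitotic genes, 65.0% for all genes kept and 58.3% for all windows. A match is a description of letters only, and TPX2, UBE2C, CENPH, FOXM1, TTK, BUB3, AURKA and BIRC5 had no entry.

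**Figure D1:**
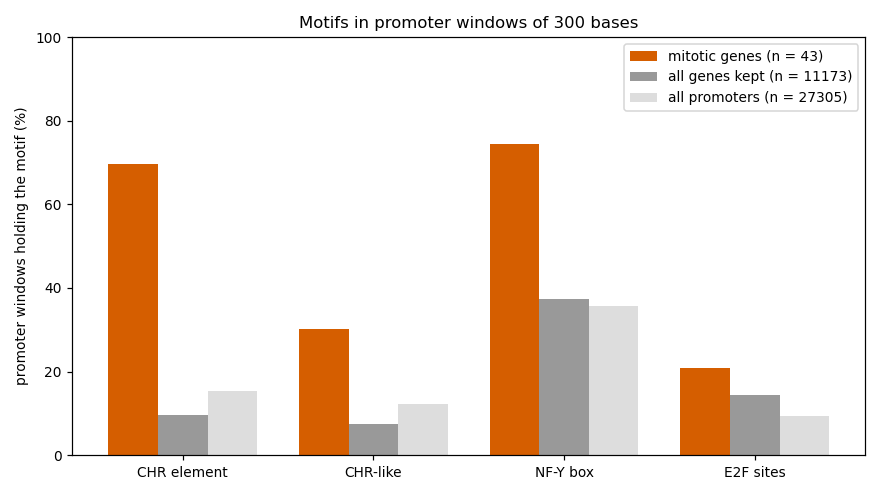
Share of promoter windows of 300 bases (y axis, percent) that held each of 4 motifs (x axis: CHR element TTTGAA, CHR-like TTTAAA, NF-Y box CCAAT, E2F sites TTCCCGC or TTGGCGC), for 43 mitotic genes, all genes kept and all windows. The CHR element stood at 69.8% of the mitotic windows against 9.70% and 15.4%, and the E2F bar at 20.9% against 14.3% and 9.33%.

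The following 4 windows belong to members whose values differed between the libraries in different ways. CDC20 and NDC80 were higher with AIL in both backgrounds, CENPN was highest in the library labelled AR1-651, and CENPF was lowest there. Capitals mark every match to a motif named above, on either strand, and no base lay in 2 motifs.
CDC20, chr1:43358731-43359030, plus strand: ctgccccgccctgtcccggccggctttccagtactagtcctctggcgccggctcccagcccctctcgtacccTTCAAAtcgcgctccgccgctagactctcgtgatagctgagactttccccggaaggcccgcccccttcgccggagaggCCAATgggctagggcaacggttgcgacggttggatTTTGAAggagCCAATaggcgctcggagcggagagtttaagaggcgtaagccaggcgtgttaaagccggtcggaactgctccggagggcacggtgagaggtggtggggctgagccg
NDC80, chr18:2571307-2571606, plus strand: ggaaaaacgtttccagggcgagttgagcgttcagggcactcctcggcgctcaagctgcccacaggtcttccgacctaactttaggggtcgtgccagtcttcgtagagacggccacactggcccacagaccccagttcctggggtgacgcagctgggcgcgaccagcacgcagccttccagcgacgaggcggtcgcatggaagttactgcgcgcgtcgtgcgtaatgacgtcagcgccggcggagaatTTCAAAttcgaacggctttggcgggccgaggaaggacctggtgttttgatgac
CENPN, chr16:81006964-81007263, plus strand: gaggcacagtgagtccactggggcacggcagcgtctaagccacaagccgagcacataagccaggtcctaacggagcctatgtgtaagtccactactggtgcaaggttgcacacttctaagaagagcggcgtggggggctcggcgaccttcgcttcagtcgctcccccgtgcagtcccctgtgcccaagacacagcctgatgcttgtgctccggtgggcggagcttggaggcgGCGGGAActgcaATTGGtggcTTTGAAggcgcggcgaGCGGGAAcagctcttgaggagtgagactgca
CENPF, chr1:214602945-214603244, plus strand: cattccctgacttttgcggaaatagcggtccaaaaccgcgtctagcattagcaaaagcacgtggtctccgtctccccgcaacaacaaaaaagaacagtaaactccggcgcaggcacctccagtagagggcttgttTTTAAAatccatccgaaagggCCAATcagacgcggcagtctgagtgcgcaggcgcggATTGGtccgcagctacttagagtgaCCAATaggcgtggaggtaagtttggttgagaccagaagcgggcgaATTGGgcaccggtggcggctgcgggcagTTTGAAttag
All 4 windows held the CHR element. In CDC20 the plus-strand copy began 65 bases before the start and a CCAAT box 55 bases before it. In NDC80 the single match was on the minus strand 3 bases before the start, with no CCAAT. CENPN carried a pair of TTCCCGC matches on the minus strand, and CENPF carried 4 CCAAT matches. The median change of log2(RPKM + 1) from AR1-651 to AR1-651 + AIL was 0.81 for the 30 members with TTTGAA and 0.43 for the 13 without, and from empty vector to empty vector + AIL it was -0.07 and 0.25. The medians of all genes kept were 0.13 and -0.02. With CCAAT (32 members) the median from AR1-651 to AR1-651 + AIL was 0.44, and without it (11 members) 0.98. With TTTAAA (13 members) it was 0.63, and without it (30 members) 0.57. Transcript length and GC content were not taken into account in these medians, and a link between motif and change was not tested.

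As a group, the mitotic genes were lowest in the library labelled AR1-651 and highest in the library labelled AR1-651 + AIL. Their median was 12.6 RPKM with empty vector and 8.37 with AR1-651, and under AIL it was 11.8 and 13.9. The median of all genes was also lowest with AR1-651, at 3.12 RPKM against 4.68 with empty vector. Under AIL the median of all genes was 4.23 with empty vector and 3.82 with AR1-651. The summed RPKM of the mitotic genes was 820.1 and 811, and under AIL 895 and 1035, which was 0.163% and 0.125%, and 0.167% and 0.183%, of the RPKM of all genes. Of the 51 genes, 26 (51%) were lowest in the AR1-651 library (with ESPL1, which was equal in both AR1-651 libraries), against 36.5% of all genes kept. In the AR1-651 + AIL library 22 (43.1%) were highest, against 26.2% of all genes kept.

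**Figure D2:**
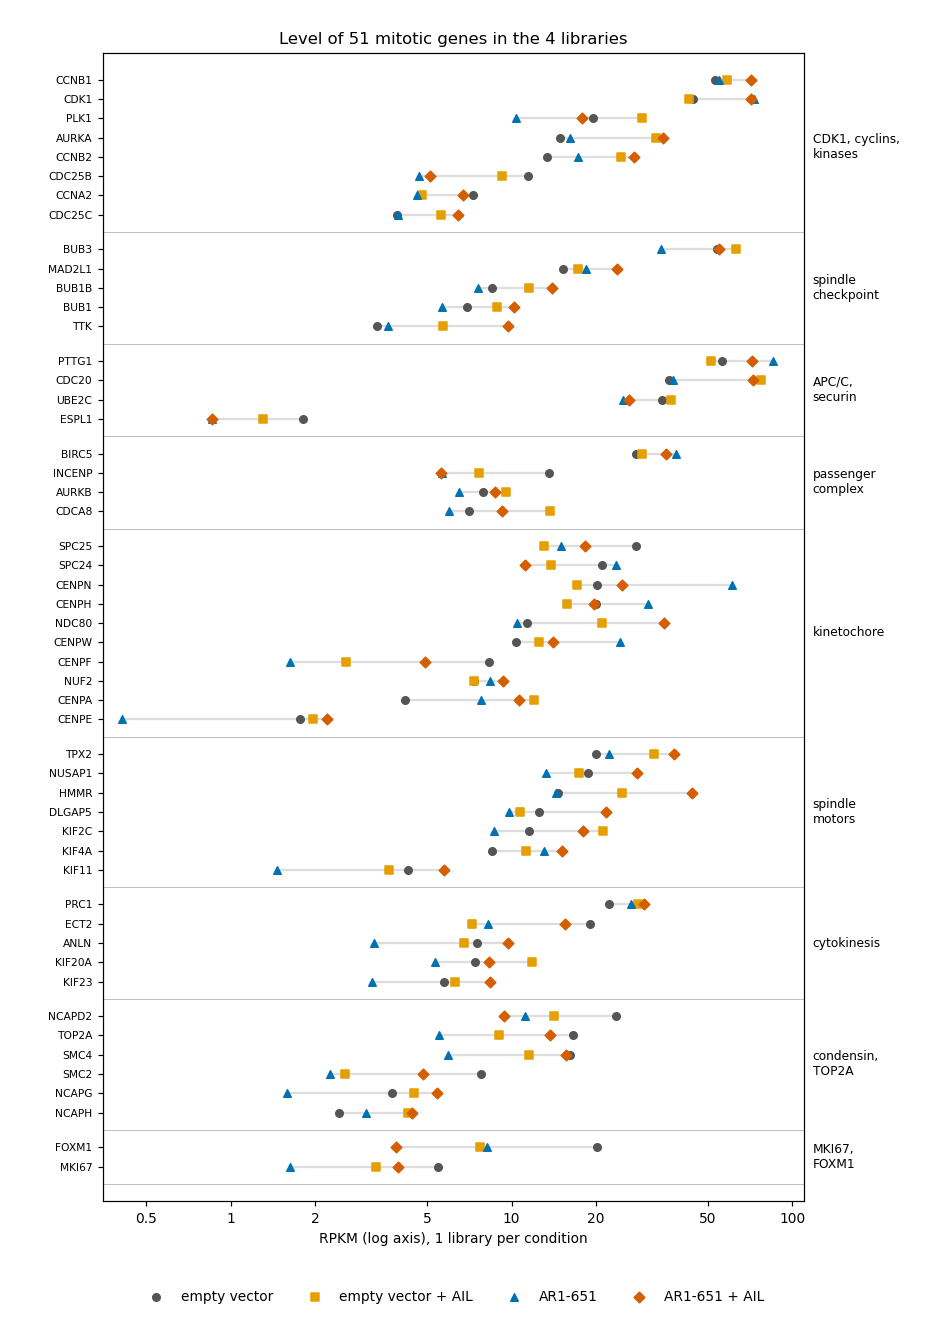
RPKM of each of the 51 mitotic genes (rows, grouped by role) in the 4 libraries (x axis, log scale), 1 library per condition with no replicate. The points for AR1-651 lie furthest to the left for 26 genes and those for AR1-651 + AIL furthest to the right for 22.

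Where a gene is given 4 values below, they are its RPKM, first with empty vector without and with AIL, then with AR1-651 without and with AIL. A change between libraries is a difference of log2(RPKM + 1), which understates the change of genes with low values, and counts of higher and lower genes in the 4 comparisons are of differences of at least 2-fold.

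Among the 8 genes for CDK1, its cyclins and activators, CCNB1, the cyclin B that drives CDK1 into mitosis, had the highest level with empty vector. It was at 52.9, 58.3, 54.8 and 71.2. CDK1 itself was at 44.3, 42.9, 73.1 and 71.0, higher in both AR1-651 libraries by less than 2-fold (0.71 without AIL and under AIL) and nearly level with AIL. After the subtraction for length and GC described below, the AR1-651 changes of CDK1 were 0.75 without AIL and 0.08 under AIL. Its changes with AIL were then -0.24 with empty vector and -0.92 with AR1-651. AURKA, the kinase that matures centrosomes and the spindle poles (Entrez 6790), was at 14.9, 32.7, 16.2 and 34.7. Both AIL libraries lay above both libraries without AIL, and AURKA was the 1 member more than 2-fold higher with AIL in both backgrounds, by 1.09 on the log2 scale with empty vector and 1.06 with AR1-651. CCNB2, the second cyclin B, was at 13.4, 24.5, 17.2 and 27.2, the same order of libraries with smaller changes (0.83 and 0.63). CDC25B, a phosphatase that activates CDK1, was at 11.5, 9.20, 4.69 and 5.13, lower in both AR1-651 libraries. PLK1, a kinase of mitotic entry and the kinetochore, was at 19.4, 29.1, 10.4 and 17.8.

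The 5 checkpoint genes were all higher with AIL in both backgrounds, as were 38.0% of all genes kept. Their median changes were 0.31 with empty vector and 0.75 with AR1-651, and those of all genes kept were -0.02 and 0.13. TTK, the kinase that starts checkpoint signalling at unattached kinetochores, was at 3.31, 5.69, 3.64 and 9.67, and was the 1 checkpoint gene past 2-fold, with AR1-651 (1.20). BUB3, which had the highest level of them with empty vector, was at 53.9, 63.2, 34.1 and 54.6. The AIL changes of BUB1, BUB1B and MAD2L1, which recruit or form the inhibitor of APC/C, lay below 2-fold in each background. After the subtraction for length and GC described below, MAD2L1 was lower with AIL in AR1-651 (-0.30). The checkpoint medians were then 0.32 with empty vector and 0.28 with AR1-651.

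Among the 4 genes of APC/C control, CDC20, the activator that brings substrates to APC/C (Entrez 991), was at 36.3, 77.0, 37.5 and 72.1. Its libraries fell into a higher pair with AIL and a lower pair without, and its changes with AIL were 1.06 with empty vector and 0.92 with AR1-651. PTTG1, which encodes the securin that restrains separase, was at 56.1, 51.4, 85.1 and 71.7, higher in both AR1-651 libraries, and near-identical gene copies leave its reads uncertain. ESPL1, the separase that cuts cohesin, was at 1.81, 1.30, 0.86 and 0.86, below 2 RPKM in each library.

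In the chromosomal passenger complex, which corrects wrong attachments through the kinase AURKB, the 4 genes did not share a direction. BIRC5, which encodes survivin and had the highest level, was at 27.6, 29.2, 38.5 and 35.5. INCENP, the scaffold of the complex, was at 13.6, 7.66, 5.67 and 5.59, lower than empty vector in the other 3 libraries. CDCA8, which encodes borealin, was at 7.07, 13.7, 5.98 and 9.22, and AURKB lay between 6.51 and 9.57.

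The 10 centromere and kinetochore genes held the largest change in each direction from empty vector to AR1-651, in CENPN and CENPF. CENPN, a reader of centromeric nucleosomes (Entrez 55839), was at 20.1, 17.1, 60.8 and 24.8, so the AR1-651 library stood above the other 3. CENPW, part of the inner kinetochore, was at 10.4, 12.5, 24.3 and 14.1 with the same library on top. CENPH, of the same inner network, was at 20.04, 15.8, 30.6 and 19.6, again highest with AR1-651 but below 2-fold. CENPF, a large protein of the outer kinetochore (Entrez 1063), was at 8.33, 2.58, 1.62 and 4.91, the reverse order for AR1-651. CENPE, the kinesin that moves chromosomes to the spindle equator, was at 1.76, 1.96, 0.41 and 2.20. The AR1-651 library was thus the lowest of the 4 for CENPF and for CENPE. CENPA, the histone H3 variant that marks centromeres, was at 4.18, 12.0, 7.77 and 10.6, lowest with empty vector.

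The 4 subunits of the NDC80 complex, which binds microtubule ends, moved apart from each other. NDC80 (Entrez 10403) was at 11.3, 20.9, 10.5 and 34.8, higher with AIL in both backgrounds. NUF2, its direct partner, was at 7.32, 7.33, 8.37 and 9.34, nearly level. SPC24 was at 21.0, 13.9, 23.6 and 11.1, lower with AIL in both backgrounds. SPC25, which pairs with SPC24, was at 27.8, 13.0, 15.0 and 18.2, highest with empty vector. Between the AR1-651 libraries the change with AIL was 1.64 for NDC80, 0.14 for NUF2, -1.02 for SPC24 and 0.27 for SPC25. After the subtraction for length and GC described below, it was 0.98 for NDC80, -0.60 for NUF2, -1.04 for SPC24 and -0.33 for SPC25.

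The 7 genes of spindle motors and microtubule-associated proteins were all higher with AR1-651 + AIL than with AR1-651, with a median change of 1.02. KIF11, the motor that pushes spindle poles apart, was at 4.27, 3.66, 1.46 and 5.76. HMMR, a spindle assembly factor, was at 14.6, 24.7, 14.4 and 43.8. TPX2, the activator of AURKA on the spindle, was at 19.97, 32.0, 22.2 and 37.9. Both AIL libraries were above both others for HMMR and TPX2, but not for KIF11. DLGAP5, which stabilises kinetochore fibres, was at 12.6, 10.7, 9.76 and 21.6, with AR1-651 + AIL alone above the rest. NUSAP1, which bundles spindle microtubules, was at 18.7, 17.3, 13.2 and 27.9 with the same library on top. KIF2C, a kinesin that takes microtubule ends apart, was at 11.5, 21.2, 8.63 and 18.0, just short of 2-fold with AR1-651 (0.98).

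Among the 5 cytokinesis genes, PRC1, which bundles the central spindle, had the highest level with empty vector and varied least (22.2, 28.2, 26.5 and 29.6). ECT2, which activates the small GTPase RhoA at the division plane, was at 19.0, 7.21, 8.23 and 15.5. ANLN, which encodes anillin, was at 7.50, 6.76, 3.24 and 9.68. For these last genes the untreated AR1-651 library was well below empty vector, and AR1-651 + AIL was above AR1-651. KIF23, a kinesin of the central spindle, was at 5.72, 6.27, 3.19 and 8.40. It was lowest with AR1-651, as was ANLN, while ECT2 was lowest with empty vector + AIL.

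Of the 6 condensin and topoisomerase genes, 5 were lower with AR1-651 than with empty vector, with a median change of -1.16. NCAPD2, a regulatory subunit of condensin I and the highest of them with empty vector, was at 23.4, 14.1, 11.2 and 9.39. SMC4 was at 16.2, 11.5, 5.92 and 15.6. SMC2, its partner in the core of condensin, was at 7.77, 2.54, 2.26 and 4.82. For both core subunits AR1-651 was lowest and empty vector highest. TOP2A, the topoisomerase that untangles sister chromatids, was at 16.6, 9.02, 5.50 and 13.7. NCAPG was at 3.76, 4.48, 1.58 and 5.42. NCAPH, the remaining condensin I subunit, was lowest with empty vector, at 2.43, 4.27, 3.02 and 4.42. The 6 genes therefore did not share an order of libraries. MKI67, which encodes the proliferation marker Ki-67, was at 5.48, 3.28, 1.62 and 3.94. FOXM1, a transcription factor that binds with MuvB at the promoters of many of these genes (Entrez 2305), was at 20.1, 7.71, 8.19 and 3.87, highest with empty vector and lowest with AR1-651 + AIL, the library that held the highest value of 22 members.

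The first comparison asked what AR1-651 did to these genes without AIL. From empty vector to AR1-651, 12 of the 51 members were at least 2-fold lower (23.5%), while 11.6% of all genes kept were, and 2 members were higher (3.92%), while 4.01% of all genes kept were. The 2 higher members were CENPN (1.55) and CENPW (1.15). The lower members were CENPF (-1.83), TOP2A (-1.44), SMC2 (-1.43), SMC4 (-1.31), MKI67 (-1.31), FOXM1 (-1.20), CDC25B (-1.13), INCENP (-1.13), ECT2 (-1.11), KIF11 (-1.10), ANLN (-1.003) and NCAPD2 (-1.002). The condensin core, its regulator NCAPD2 and TOP2A thus made up 4 of the 12. NCAPD2 lay just inside the threshold and CENPE (-0.97) just outside, and CENPA (0.76) was the nearest member below the upper threshold. The median change of the members was -0.26, close to the median of all genes kept, -0.30. The count of lower members fell with 2 corrections. After scaling by median ratios, which moved the median of all genes to -0.09, 5 members were lower (9.80%), while 5.59% of all genes were. When the course of the change with transcript length and GC content over all genes was subtracted, 2 were lower (CENPF and SPC25), while 3.77% of all genes were, and CENPN was the 1 higher member.

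The second comparison asked what AIL did with empty vector. From empty vector to empty vector + AIL, 3 members were at least 2-fold higher (5.88%), while 9.53% of all genes kept were, and 5 were lower (9.80%), while 9.03% of all genes kept were. The higher members were CENPA (1.33), AURKA (1.09) and CDC20 (1.06), and the lower ones were CENPF (-1.38), SMC2 (-1.31), ECT2 (-1.28), FOXM1 (-1.28) and SPC25 (-1.04). CDCA8 (0.87) and TOP2A (-0.81) were the nearest members outside. The median change was 0.10, and that of all genes kept -0.02. The lower share lay near its background and the higher share below it. The same 5 lower members and CDC20 and CENPA remained past the threshold when the course with length and GC content was subtracted, where AURKA was at 0.90.

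The third comparison asked what AIL did with AR1-651, and held the most changes. From AR1-651 to AR1-651 + AIL, 14 members were at least 2-fold higher (27.5%), while 14.9% of all genes kept were, and 2 were lower (3.92%), while 5.74% of all genes kept were. The higher members were NDC80 (1.64), HMMR (1.54), KIF11 (1.46), ANLN (1.33), NCAPG (1.32), SMC4 (1.27), TTK (1.20), CENPE (1.18), TOP2A (1.18), CENPF (1.17), KIF23 (1.17), DLGAP5 (1.07), AURKA (1.06) and NUSAP1 (1.02). The lower members were CENPN (-1.26) and SPC24 (-1.02), and FOXM1 was at -0.92, just outside. In all, 40 members were above 0 and 10 below, as were 8223 and 6215 of the 14626 genes kept. The median of the members was 0.59, while the median of all genes kept was 0.13. Motors and spindle proteins gave 4 of the 14, and condensin with TOP2A gave 3. This count also fell with the corrections. After median-ratio scaling, which moved the median of all genes to -0.03, 9 members were higher, while 10.8% of all genes were. With the length and GC course subtracted, 1 was higher (CDC20, 1.02), while 8.21% of all genes were, and 4 were lower (CENPN, CENPW, CENPH and SPC24), while 7.47% of all genes were. The median of the members then stood 0.31 above that of all genes, where it had stood 0.47 above.

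The fourth comparison set AR1-651 against empty vector under AIL. From empty vector + AIL to AR1-651 + AIL, 1 member was at least 2-fold higher (1.96%), ECT2 at 1.01, while 1.46% of all genes kept were, and 0 were lower, while 3.53% of all genes kept were. DLGAP5 (0.95) was just below the threshold, and FOXM1 had the lowest value, -0.84. The median was 0.24, while the median of all genes kept was -0.03, and 36 members were above 0, as were 6864 of the 14626 genes kept. The 4 comparisons share libraries in pairs, so a library that stood apart would enter 2 of them, with opposite sign where AR1-651 is the later library of the first comparison and the earlier library of the third.

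**Figure D3:**
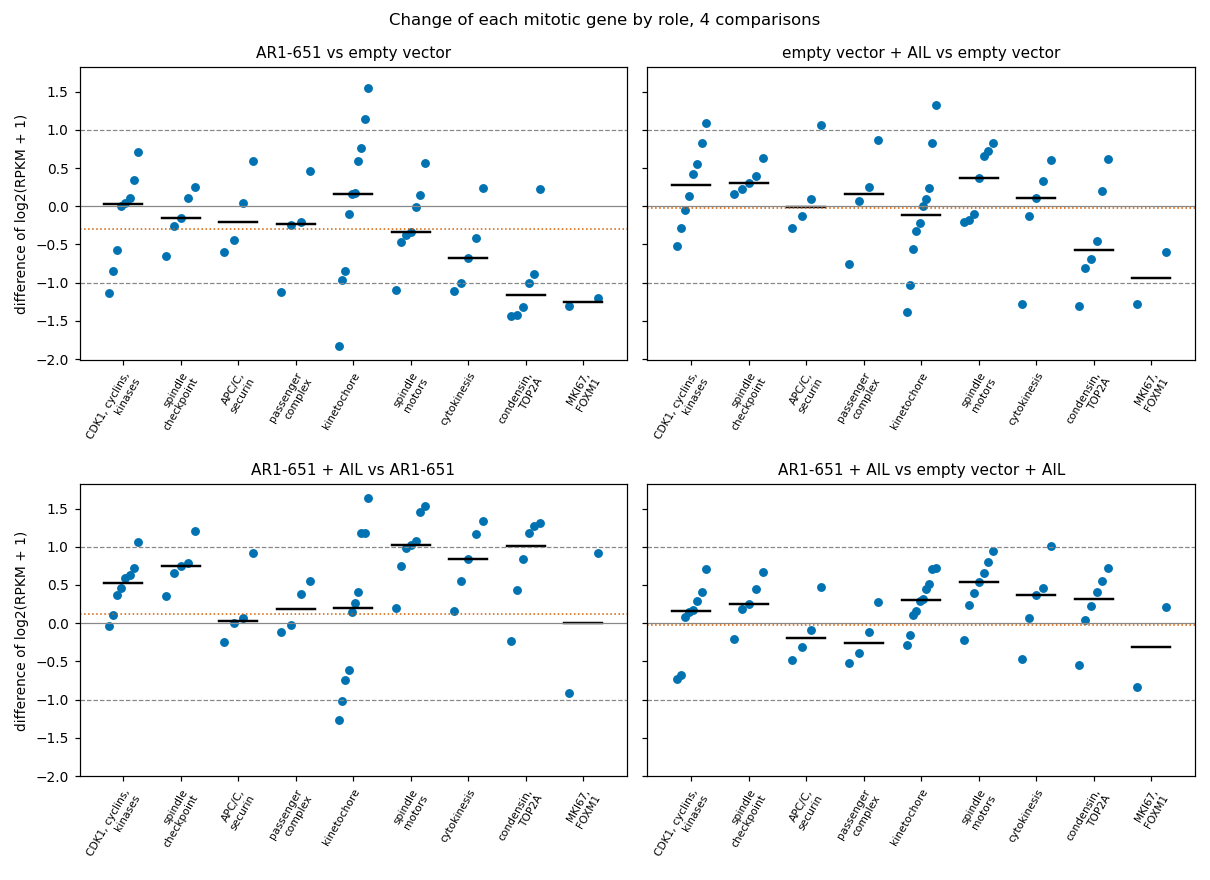
Change of each mitotic gene (points) as a difference of log2(RPKM + 1) (y axis) by role (x axis) in the 4 comparisons, 1 library per group; bars are the median of a role, dashed lines mark 2-fold and the dotted line is the median of all genes kept. Condensin with TOP2A has its median at -1.16 from empty vector to AR1-651 and at 1.01 from AR1-651 to AR1-651 + AIL.

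By role, some medians kept their sign under every alternative scaling and filter. From empty vector to AR1-651 they were negative for condensin with TOP2A (-1.16), cytokinesis (-0.68) and spindle motors and associated proteins (-0.33). The median of all genes kept was -0.30 and thus near the last of these. These 3 role medians were -0.60, -0.42 and -0.12 with the length and GC course subtracted. From AR1-651 to AR1-651 + AIL they were positive for the same 3 roles (1.01, 0.84 and 1.02), for the checkpoint (0.75) and for CDK1 with its regulators (0.53), where the median of all genes kept was 0.13. With the length and GC course subtracted these medians were smaller, at 0.35 for condensin with TOP2A, 0.39 for cytokinesis, 0.53 for the spindle proteins and 0.28 for both the checkpoint and CDK1 with its regulators. From empty vector to empty vector + AIL they were positive for the checkpoint (0.31) and the spindle proteins (0.37) and negative for condensin with TOP2A (-0.57). They were also positive for CDK1 with its regulators (0.28), the passenger complex (0.16) and cytokinesis (0.11). The kinetochore (-0.11) and MKI67 with FOXM1 (-0.94) stayed negative, where the median of all genes kept was -0.02. From empty vector to AR1-651 the kinetochore median (0.17) stayed positive and that of MKI67 with FOXM1 (-1.25) negative. The median of the checkpoint genes from empty vector to AR1-651 was -0.15 and turned to 0.09 with median-ratio scaling. The kinetochore median from AR1-651 to AR1-651 + AIL was 0.20 and turned to -0.46 with the length and GC course subtracted.

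Transcript length and GC content moved with the changes. Across the 51 members the Spearman correlation of the change from empty vector to AR1-651 with transcript length was -0.63, and across 14005 genes with a length it was -0.40. These are descriptions across genes of the same 2 libraries, and genes are not independent replicates. Among the 17 shortest members (750 to 2315 nt) the median change was 0.11, among the middle 17 it was -0.26, and among the 17 longest (3964 to 12678 nt) it was -1.003. The change from AR1-651 to AR1-651 + AIL went with GC content, at -0.50 across the members and -0.41 across all genes. The 17 members with the lowest GC content (35.3% to 40.1%) had a median change of 1.18, the middle 17 had 0.63 and the 17 with the highest (48.3% to 59.6%) had 0.06. From empty vector + AIL to AR1-651 + AIL the correlation with GC content was -0.74 across the members and -0.60 across all genes. The mitotic genes had a median length of 3102 nt and a median GC content of 43.2%, while all genes had 2872 nt and 49.3%. The part of length, GC content and library preparation in these changes was not tested.

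**Figure D4:**
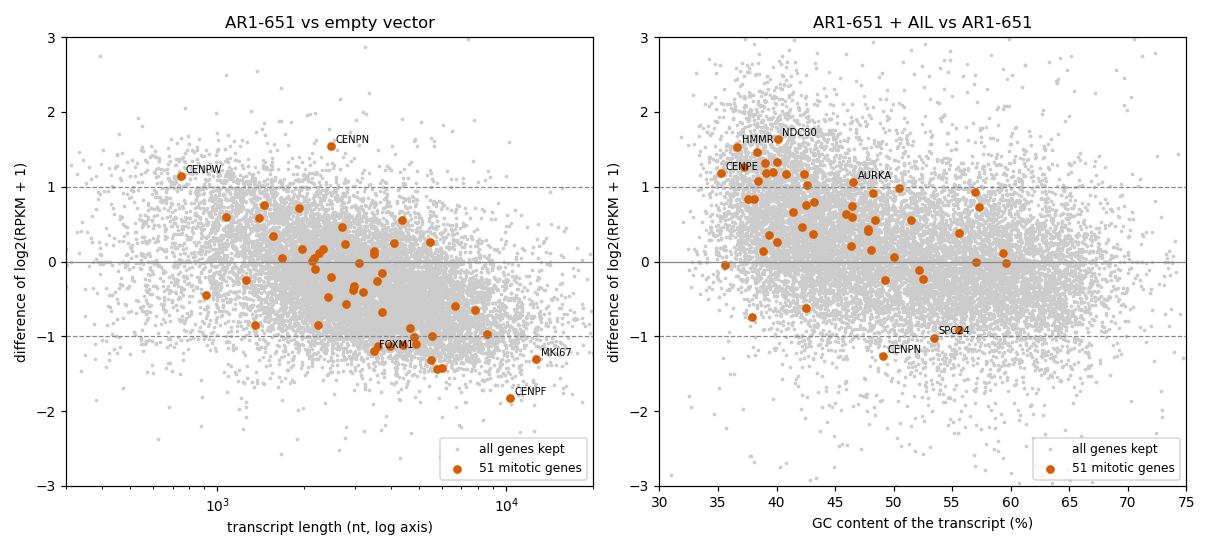
Left, change from empty vector to AR1-651 (y axis, difference of log2(RPKM + 1)) against transcript length in nt (x axis, log scale); right, change from AR1-651 to AR1-651 + AIL against GC content in percent; grey points are all genes kept, orange points the 51 mitotic genes, dashed lines 2-fold, and genes beyond the axes are not drawn. Long members such as CENPF and MKI67 lie low on the left. Of the members with little GC, HMMR and CENPE lie high on the right, while CDK1 (-0.04), NUF2 (0.14) and CENPW (-0.74) do not.

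AIL in the presence and in the absence of AR1-651 was compared gene by gene, since these changes come from separate pairs of libraries. With AIL, 27 of the 51 members were higher in both backgrounds (52.9%), as were 38.0% of all genes kept. Both were at least 1.5-fold for CCNB2, AURKA, TTK, CDC20, NDC80, KIF2C, TPX2 and HMMR, which is 15.7% of the members and 14.4% of all genes kept. At 2-fold AURKA alone was left (1.96%), against 5.67% of all genes kept. Under 3 alternatives it was past 2-fold in fewer than both backgrounds: with median-ratio scaling not with AR1-651, with ribosomal protein genes left out not with empty vector, and with the length and GC course subtracted in neither (0.90 with empty vector and 0.79 with AR1-651). Lower in both backgrounds were 8 members (15.7%) and 32.2% of all genes kept, namely CDK1, PTTG1, INCENP, CENPH, CENPN, SPC24, NCAPD2 and FOXM1. FOXM1 was the 1 member at least 1.5-fold lower in both (1.96%, against 8.75% of all genes kept). Another 13 members (25.5%, against 18.0% of all genes kept) were lower with AIL in empty vector and higher with AIL in AR1-651. They included CENPF (-1.38 and 1.17), SMC2 (-1.31 and 0.84), ECT2 (-1.28 and 0.84) and TOP2A (-0.81 and 1.18). With the length and GC course subtracted, the changes with AIL in AR1-651 were 0.57 for CENPF, 0.07 for SMC2, 0.10 for ECT2 and 0.50 for TOP2A. Higher with AIL in empty vector and lower with AIL in AR1-651 were 2 members (3.92%, against 9.87% of all genes kept), BIRC5 (0.08 and -0.11) and CENPW (0.25 and -0.74). The change with AIL in AR1-651 was larger than that in empty vector by a median of 0.29, against 0.14 for all genes kept, and by at least 2-fold for 14 members (27.5%), against 11.3% of all genes kept. This excess went with length (Spearman 0.62 across the members, 0.36 across all genes) and GC content (-0.49 and -0.42), and the median was 0.06 once both trends were removed.

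**Figure D5:**
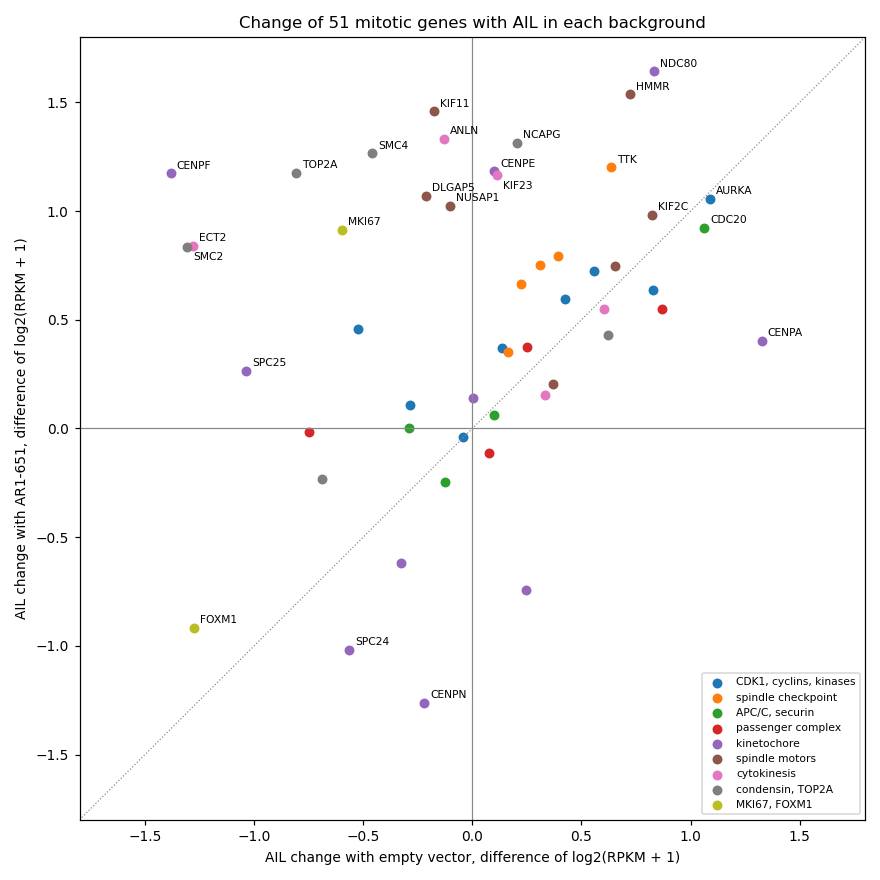
Change with AIL of each of the 51 mitotic genes with empty vector (x axis) and with AR1-651 (y axis), both as a difference of log2(RPKM + 1), coloured by role; the dotted line marks equal changes. AURKA and CDC20 lie near the line at 1, FOXM1 and SPC24 in the lower left, and CENPF, SMC2, ECT2 and TOP2A in the upper left, where the changes have opposite signs.

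Other genes of the same pathway were taken from 7 further lists with 106 genes, all of which were measured, and their counts of higher and lower genes are of differences of at least 2-fold. From empty vector to AR1-651, 5 were at least 2-fold higher (4.72%, against 4.01% of all genes kept) and 13 lower (12.3%, against 11.6%), both near the background. From empty vector to empty vector + AIL 6 were higher (5.66%, against 9.53%) and 2 lower (1.89%, against 9.03%). From AR1-651 to AR1-651 + AIL 28 were higher (26.4%, against 14.9%) and 1 lower (0.943%, against 5.74%). From empty vector + AIL to AR1-651 + AIL 1 was higher (0.943%, against 1.46%) and 0 were lower (against 3.53%). With the length and GC course subtracted, 9 of 105 genes were higher in the third comparison (8.57%, against 8.21% of all genes) and 1 lower (0.952%, against 7.47%), and in the first 4 were higher (3.81%, against 4.89%) and 2 lower (1.90%, against 3.77%). Cohesin, the ring that holds sister chromatids together, had 5 of 13 genes lower with AR1-651 (38.5%, against 11.6% of all genes kept), and 8 of 13 higher from AR1-651 to AR1-651 + AIL (61.5%, against 14.9%), and these counts were 2 and 3 without the trend (15.4%, against 3.77% of all genes, and 23.1%, against 8.21%). NIPBL, the cohesin loader, was at 6.23, 4.68, 1.45 and 7.79 in the same order of libraries as above. STAG1, a cohesin subunit, was at 5.99, 8.35, 3.08 and 13.6. Both were lowest with AR1-651 and highest with AR1-651 + AIL.

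In the APC/C list of 19 genes, 3 were higher with AIL in empty vector (15.8%, against 9.53% of all genes kept) and 4 in AR1-651 (21.1%, against 14.9%). These counts were 3 of 18 (16.7%, against 9.36% of all genes) and 2 of 18 (11.1%, against 8.21%) with the length and GC course subtracted. ANAPC10, a subunit that helps hold substrates, was at 4.52, 25.1, 10.3 and 41.5. MAD2L1BP, which helps silence the checkpoint, was at 14.3, 52.5, 18.4 and 50.8. Both therefore showed a higher pair of AIL libraries. NCAPD3, a subunit of condensin II, was at 12.3, 10.5, 47.2 and 12.7, with the AR1-651 library alone on top, while SMC6, of the SMC5/6 complex, was at 5.89, 6.85, 1.90 and 10.3 with that library lowest. Of the 29 other kinetochore genes 2 were higher with AR1-651 (6.90%, against 4.01% of all genes kept), CENPX (1.10) and ZWINT (1.09), and 4 were higher from AR1-651 to AR1-651 + AIL (13.8%, near the 14.9% of all genes kept), led by SPDL1 (1.78). Among 19 other kinesins and spindle genes 4 were lower with AR1-651 (21.1%, against 11.6% of all genes kept), and 6 were higher from AR1-651 to AR1-651 + AIL (31.6%, against 14.9%), led by CKAP2 (1.61), and both counts were 0 with the length and GC course subtracted. Among 12 other kinases and CDK partners, WEE1, the kinase that restrains CDK1, was at 5.79, 11.3, 2.13 and 7.89, and CKS2 at 113, 157, 269 and 205. Of 9 genes of MuvB and its partners, LIN9 (2.71, 7.35, 4.95 and 13.0 RPKM) and LIN37 (10.5, 29.8, 9.94 and 23.6 RPKM) were higher with AIL in both backgrounds, as were 5.67% of all genes kept. LIN54 was higher from AR1-651 to AR1-651 + AIL (1.04). The share higher with AIL was 22.2% in empty vector (against 9.53% of all genes kept) and 33.3% in AR1-651 (against 14.9%). With the length and GC course subtracted, it was 22.2% in empty vector (against 9.36% of all genes) and 11.1% in AR1-651 (against 8.21%).

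Reads could not be assigned to 1 gene with equal certainty for every member. At least 10% of the exonic bases lay within exons of another gene for CDC25C (10.7%), CENPN (24.9%), NCAPG (35.0%) and SMC4 (27.4%), where the other gene is on the opposite strand, and for NUSAP1 (72.8%) and PRC1 (65.2%), where it is on the same strand. Whether strand was used in counting is not given in the sources used here, so for the first 4 reads of the neighbour cannot be told apart from those of the member. For NUSAP1 and PRC1 reads from the shared bases could not be told apart by strand in any case. RPKM keeps no read totals, so how deeply each library was sequenced is unknown and no counting interval is given.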

How the data were processed

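LNCaP cells in 4 groups (AR1-651 or empty vector, without or with AIL) gave 1 RNA-seq library each. The RPKM values were computed and deposited by the authors, with 1 value per gene and library, written to 2 decimals and keyed by Entrez and RefSeq identifiers. The submitters' processing notes name BWA 0.7.10-r789 and hg19, with no role. The counting tool, annotation release and use of strand are not given in the sources used here. The labels name a ribosomal depletion kit and also describe oligo(dT) enrichment, while the study's methods describe depletion with selection of short fragments, and how this affects genes of different length or GC content was not tested. RPKM scales each library by its own total, so a few abundant mRNAs lower all other values, and it holds no depth.

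Symbols were matched for 19703 of 19801 genes. Changes are differences of log2(RPKM + 1) over 14626 genes with at least 1 RPKM in at least 1 library, and 2-fold was the threshold. Members had to be listed only. Values in all 4 libraries are given for members past 2-fold, nearest the threshold, or highest in their role with empty vector, and some further members were named after their values were seen. Up to 4 genes per further list are named, mostly by size of change. Of the other kinetochore genes, CENPX and ZWINT are named as those higher with AR1-651. HJURP (1.30) and SKA3 (1.11) changed more, from AR1-651 to AR1-651 + AIL, and were left out. The members and lists were chosen with earlier results of these data known. Transcript length and GC content came from GENCODE 29 (14005 genes, 95.8%), and a polynomial of degree 3 in their ranks was subtracted for the trend-free values. Promoters came from RefSeq on GRCh38.p14, whose coordinates were not mixed with hg19. The alternatives were median-ratio scaling, a 1.5-fold threshold, subtraction of the trend, a filter of 5 RPKM or none, a pseudocount of 0.1, and scaling without 90 ribosomal protein genes. Scripts were tested on simulated data and run with Python 3.11.15, NumPy 2.4.6, pandas 2.3.3, SciPy 1.17.1 and matplotlib 3.10.9. The level of the transfected gene is not reported here.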

Additional observations from a re-analysis of the deposited data

Results flagged for a closer look

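The change with AIL had opposite signs with empty vector and with AR1-651 for 15 of the 51 genes (29.4%), which is what picked them out, and for 27.8% of all genes kept, a share near that of the members. With 1 library per group the difference between the backgrounds was not tested. The difference, the change of log2(RPKM + 1) with AR1-651 minus that with empty vector, was 2.56 for CENPF, 2.15 for SMC2, 2.12 for ECT2, 1.99 for TOP2A, 1.72 for SMC4, 1.64 for KIF11, 1.46 for ANLN, 1.30 for SPC25, 1.28 for DLGAP5 and 1.13 for NUSAP1. For these 10 genes at least 1 of the changes reached 2-fold. Their transcripts were 1354 to 10307 nt long with a GC content of 37.3% to 42.6%, and their differences were 0.65 to 1.78 once the trend with length and GC content over all genes had been removed. SPC25 was then lower with AIL in both backgrounds (-1.30 with empty vector and -0.33 with AR1-651). For the rest of these 10 genes the signs stayed opposite, but the change with AR1-651 was only 0.07 for SMC2 and 0.10 for ECT2.

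In the other 5 genes neither change reached 2-fold. The difference was 1.51 for MKI67, 0.98 for CCNA2, 0.40 for CDC25B, -0.19 for BIRC5 and -0.99 for CENPW. Once the trend was removed it was 1.07 for MKI67, 0.64 for CCNA2, 0.38 for CDC25B, -0.20 for BIRC5 and -1.41 for CENPW. CCNA2 was then lower with AIL in both backgrounds (-0.70 with empty vector and -0.06 with AR1-651).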

How the results depend on the processing

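No paired analysis was possible because each group held 1 library. For the same reason no library could be left out, and RPKM holds no depth from which an error could be set. The filter of 5 RPKM kept all 13 summary results (8 counts and 5 medians) within 1.5-fold or 0.1 on the log2 scale. With a pseudocount of 0.1, 2 members were higher from empty vector + AIL to AR1-651 + AIL (3.92%, against 3.48% of all genes). With median-ratio scaling, 5 were lower from empty vector to AR1-651 (9.80%, against 5.59% of all genes). Under that scaling 9 were higher from AR1-651 to AR1-651 + AIL (17.6%, against 10.8%). A further 2 were higher from empty vector + AIL to AR1-651 + AIL (3.92%, against 1.68%), and the median difference of the AIL changes was 0.17. Without the filter, the median of the members minus that of all genes turned from 0.04 to -0.074 from empty vector to AR1-651, where all genes included many listed near 0.

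At 1.5-fold, 6 members were higher (11.8%, against 10.7% of all genes) and 19 lower (37.3%, against 32.3%) from empty vector to AR1-651, 12 (23.5%, against 20.9%) and 9 (17.6%, against 22.1%) from empty vector to empty vector + AIL, 26 (51%, against 28.6%) and 5 (9.80%, against 14.7%) from AR1-651 to AR1-651 + AIL, and 9 (17.6%, against 7.73%) and 3 (5.88%, against 15.5%) from empty vector + AIL to AR1-651 + AIL. With the length and GC trend removed, 1 was higher (1.96%, against 4.89% of all genes) and 2 lower (3.92%, against 3.77%) from empty vector to AR1-651. The median minus that of all genes was then -0.075, where it had been 0.04. From AR1-651 to AR1-651 + AIL 1 was higher (1.96%, against 8.21%) and 4 lower (7.84%, against 7.47%), with a median 0.31 above. From empty vector + AIL to AR1-651 + AIL 0 were higher (against 1.19%), with a median 0.070 above. The median difference of the AIL changes was 0.064. Scaled without ribosomal protein genes, 1 member was higher from empty vector to AR1-651 (1.96%, against 2.61% of all genes) and 16 were lower (31.4%, against 17.2%). From empty vector to empty vector + AIL 1 was higher (1.96%, against 8.0%). From AR1-651 to AR1-651 + AIL 15 were higher (29.4%, against 15.8%) and 1 lower (1.96%, against 5.32%). From empty vector + AIL to AR1-651 + AIL 0 were higher (against 1.39%). Why the counts moved under these scalings was not tested.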
